A study of Homo sapiens with 6 samples.

Results

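The 7 metallothionein genes described here were MT1A, MT1E, MT1F, MT1G, MT1M, MT1X and MT2A, taken by their symbols from the deposited count and FPKM tables, and they made up 7 of the 30987 genes of the count table. They were chosen with results of siPAIP1 against Ctrl already known, so their differences between these groups are given as a description, with no test. The study asked how the transcriptome of HepG2 cells changes when PAIP1, a protein that binds the poly(A)-binding protein and promotes translation initiation, is depleted. HepG2 is an established human liver cancer cell line. The siPAIP1 group was transfected with siRNA3 against PAIP1 and the Ctrl group with a non-target control siRNA, in both cases with Lipofectamine 2000, and cells were harvested after 48 h. Poly(A)-selected RNA was sequenced from 3 biological replicates of each group (6 libraries). Only 1 siRNA sequence was used for the sequenced knockdown, so an effect of PAIP1 loss and an effect of that siRNA cannot be told apart. The labels name DMEM as the culture medium and the study's methods name MEM, both with fetal bovine serum, and the metal content of the medium was not analysed here.

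Metallothioneins are small cysteine-rich proteins that bind zinc and copper in the cytosol and also take up cadmium and other toxic metals. The liver is a main site of their synthesis, and their genes are switched on by the zinc-sensing transcription factor MTF1, which binds short metal response elements (MREs) in their promoters. Glucocorticoids, interleukin-6, heavy metals and oxidants are also known inducers of the family.

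The libraries held between 29313211 and 34659866 counts, the lowest total being siPAIP1 replicate 3. PAIP1 had 27.8, 21.8 and 20.1 CPM (counts scaled to library depth and to the TMM factors of edgeR) in the siPAIP1 libraries and 94.6, 81.5 and 90.0 CPM in the Ctrl libraries, and it fell by 1.93 on the log2 scale (SE 0.13, edgeR quasi-likelihood test, adjusted p = 0.000918). In siPAIP1 replicate 3, 357 of 9247 genes lay more than 2-fold above the other libraries of its group, against at most 7 genes in any other library, so member values are also given without it. The 8 hepatocyte-like markers were all present, with a summed level of 6499 to 8382 CPM in siPAIP1 and 10160 to 10740 CPM in Ctrl, and 5 of 8 were called lower (6.2% of all genes tested were). The calls of ALB, APOA1, SERPINA1, TF and TTR were each lost without siPAIP1 replicate 2 or any 1 Ctrl library (adjusted p between 0.052 and 0.154). Of 10 markers of fibroblasts, leukocytes and endothelial cells, 6 were absent or had at most 3 counts, and the summed level was 3.35 to 5.81 CPM in siPAIP1 and 4.13 to 4.70 CPM in Ctrl. As these are bulk libraries, a change in the number of cells of a kind and a change in RNA per cell cannot be told apart, and the part of the marker differences in the results below was not tested.

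All 7 genes lie in the metallothionein cluster of chromosome 16, which spans 119124 bp from MT4 to MT1X (GRCh38, GENCODE release 44, chr16:56565073-56684196). From low to high coordinates the members are MT2A (ENSG00000125148, chr16:56608584-56609497), MT1E (ENSG00000169715, chr16:56625475-56627112), MT1M (ENSG00000205364, chr16:56632659-56633981), MT1A (ENSG00000205362, chr16:56638666-56640087), MT1F (ENSG00000198417, chr16:56657731-56660698), MT1G (ENSG00000125144, chr16:56666730-56668065) and MT1X (ENSG00000187193, chr16:56682470-56684196). MT1G is the only member on the minus strand. Their transcripts are 396 to 704 bases long, and their coding sequences measure 186 bases, or 189 bases in MT1G. The coding sequences are 88.7% (MT1F and MT1X) to 94.6% (MT1A and MT1E) identical between pairs.

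MRE letters can be seen in the promoters. RefSeq (GRCh38.p14) gave the 250 bases before the start of only 2 of the 7 members, MT2A (chr16:56608334-56608583) and MT1X (chr16:56682220-56682469). Whether MREs had a part in the differences between groups was not tested. The nearby copies MT1B (chr16:56651636-56651885) and MT1H (chr16:56669564-56669813) are shown for comparison, since they had few counts in these cells. All 4 run 5′ to 3′ on the plus strand, with matches to the MRE core in capitals. The core was searched as TGCACNC and TGCGCNC on both strands.
MT2A: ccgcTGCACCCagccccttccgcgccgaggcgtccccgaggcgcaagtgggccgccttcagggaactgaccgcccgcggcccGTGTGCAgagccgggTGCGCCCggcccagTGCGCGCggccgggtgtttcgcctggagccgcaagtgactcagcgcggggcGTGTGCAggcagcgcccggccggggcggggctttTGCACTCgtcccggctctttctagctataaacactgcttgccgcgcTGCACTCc
MT1X: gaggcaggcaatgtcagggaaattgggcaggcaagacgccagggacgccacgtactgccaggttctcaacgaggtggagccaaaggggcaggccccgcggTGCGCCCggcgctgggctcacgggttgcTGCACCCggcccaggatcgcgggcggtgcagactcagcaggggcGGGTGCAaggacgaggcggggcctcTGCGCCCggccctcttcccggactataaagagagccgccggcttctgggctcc
MT1B: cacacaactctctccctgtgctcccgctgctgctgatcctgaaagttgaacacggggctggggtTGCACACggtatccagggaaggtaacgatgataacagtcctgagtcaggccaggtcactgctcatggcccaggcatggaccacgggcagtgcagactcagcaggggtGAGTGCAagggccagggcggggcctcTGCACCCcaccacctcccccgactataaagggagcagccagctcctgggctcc
MT1H: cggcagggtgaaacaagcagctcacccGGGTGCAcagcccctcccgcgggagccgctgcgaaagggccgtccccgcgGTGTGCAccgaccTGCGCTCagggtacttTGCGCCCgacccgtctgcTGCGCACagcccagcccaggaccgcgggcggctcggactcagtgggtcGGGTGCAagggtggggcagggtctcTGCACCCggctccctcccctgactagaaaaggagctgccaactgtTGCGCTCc

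The MT2A promoter held 7 core matches and the MT1X promoter 4, and at least 7 matches were found in 0.0313% and at least 4 in 0.37% of 35116 promoters of the same length. MT1H, with 9 counts over the siPAIP1 libraries and 1 over the Ctrl libraries, held 8 matches (at least 8 in 0.0171% of promoters), and MT1B held 3 (at least 3 in 1.58%). In MT2A the matches started between 246 and 8 bases upstream of the transcription start, and in MT1X between 150 and 53 bases upstream. A match to TGANTCA, the letters bound by AP-1, lay once in the MT2A promoter and once in that of MT1B. None lay in the promoters of MT1X and MT1H, and 6.6% of all promoters held a match. A match describes the letters and is not a measured binding site.

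Levels of the 7 members spanned a wide range in both groups, and MT2A and MT1E, the most abundant copies, accounted for most metallothionein RNA. Compared per length, as FPKM (fragments per kilobase of exon, scaled to the mapped fragments), MT2A had 239.6, 272.5 and 241.3 FPKM in siPAIP1 and 139.8, 151.4 and 157.2 FPKM in Ctrl. MT1E had 154.0, 154.9 and 130.7 FPKM in siPAIP1 and 88.2, 79.2 and 90.2 FPKM in Ctrl. No siPAIP1 value of either gene fell within the Ctrl range. By CPM, every siPAIP1 library lay above every Ctrl library for 19.0% of all genes tested, and the share by FPKM was not computed. MT1G, a copy often reported as silenced in liver cancers, followed with 63.7, 56.5 and 51.6 FPKM in siPAIP1 and 34.6, 32.2 and 34.6 FPKM in Ctrl.

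MT1F had 53.4, 52.9 and 46.6 FPKM in siPAIP1 and 23.3, 21.9 and 24.3 FPKM in Ctrl, the highest ratio between groups among the 7. MT1X, in contrast, had 29.8, 29.5 and 22.9 FPKM in siPAIP1 and 21.5, 19.6 and 22.3 FPKM in Ctrl. Its lowest siPAIP1 value, that of replicate 3, was 1.03 times the highest Ctrl value. The scarce copies were MT1A, at 4.0, 3.57 and 4.02 FPKM in siPAIP1 and 1.73, 2.05 and 2.15 FPKM in Ctrl, and MT1M. MT1M had 1.02, 1.34 and 0.89 FPKM in siPAIP1 and 0.32, 0.52 and 0.83 FPKM in Ctrl, so its groups were nearly touching.

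**Figure D1:**
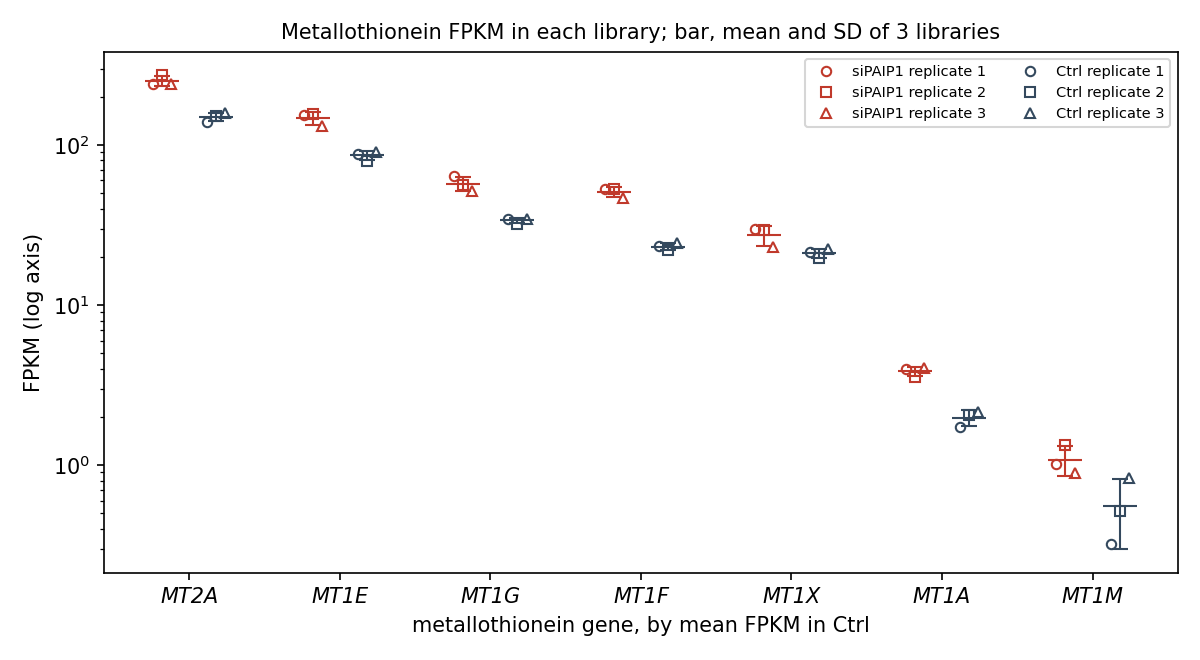
FPKM of the 7 members in each library on a log axis, with siPAIP1 at the left and Ctrl at the right of each gene, symbols for replicates 1, 2 and 3, and bars for mean and SD (n = 3). MT2A and MT1E stand on top, MT1A and MT1M at the bottom, and no siPAIP1 symbol lies within the Ctrl range of its gene. By CPM, every siPAIP1 library lay above every Ctrl library for 19.0% of all genes tested.

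The order of mean levels was MT2A, MT1E, MT1G, MT1F, MT1X, MT1A, MT1M in both groups. Among neighbours in that order, MT1G and MT1F overlapped in siPAIP1 (51.6 to 63.7 against 46.6 to 53.4 FPKM), and MT1F and MT1X overlapped in Ctrl (21.9 to 24.3 against 19.6 to 22.3 FPKM). Among the 30706 genes of the FPKM table, MT2A ranked 189 in siPAIP1 and 343 in Ctrl, and MT1E ranked 338 and 663 in the same groups. MT1M ranked 11699 in siPAIP1 and 12970 in Ctrl.

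Counts show the depth behind these levels. MT2A had 8667, 9964 and 8404 counts in siPAIP1 and 5175, 5603 and 5210 in Ctrl. The count of MT1F was 1430, 1433 and 1201 in siPAIP1 and 638, 601 and 596 in Ctrl. MT1X had 894, 897 and 663 counts in siPAIP1 and 661, 601 and 613 in Ctrl. MT1A reached 61, 55 and 59 counts in siPAIP1 against 27, 32 and 30 in Ctrl, and MT1M 31, 41 and 26 against 10, 16 and 23 in the same groups. The scarce copies rest on few reads. All 7 passed the filter on low counts, which counts libraries of both groups together. MT1M met it in 3 siPAIP1 and only 2 Ctrl libraries, so it would not have passed on its Ctrl libraries alone.

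Scaled to depth and composition, MT1F averaged 40.8 ± 0.928 CPM in siPAIP1 and 18.9 ± 0.731 CPM in Ctrl (SD, n = 3 each), a ratio of 2.16 and a fitted log2 fold change of 1.11 (SE 0.07). MT2A averaged 272.1 ± 17.2 CPM in siPAIP1 and 165.0 ± 8.73 CPM in Ctrl, a ratio of 1.65 (log2 fold change 0.72, SE 0.08). MT1E and MT1G were close to it, with ratios of 1.67 and 1.66 and log2 fold changes of 0.74 (SE 0.08) and 0.73 (SE 0.08). MT1X had the lowest ratio, 1.27, with 24.6 ± 2.24 CPM in siPAIP1 and 19.4 ± 1.07 CPM in Ctrl and a log2 fold change of 0.35 (SE 0.09). For MT1A and MT1M the fitted values were 0.94 (SE 0.20) and 0.94 (SE 0.35), on the lowest counts of the 7. The median over the 7 members was 0.74, beside 0.03 over all 15528 genes tested.

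Every siPAIP1 library lay above every Ctrl library by CPM for 7 of 7 members, as was so for 19.0% of all genes tested. The lowest siPAIP1 value exceeded the highest Ctrl value by a factor of 2.04 for MT1F, 1.60 for MT1A, 1.54 for MT1E and for MT1G, 1.48 for MT2A, 1.14 for MT1M and 1.09 for MT1X. Nothing is read from this separation, since the members were chosen on this contrast, and for the same reason their calls are not given. Leaving out siPAIP1 replicate 3, the fitted log2 fold changes were 1.12 for MT1F, 1.03 for MT1M, 0.86 for MT1A, 0.77 for MT1E, 0.76 for MT1G, 0.70 for MT2A and 0.42 for MT1X. The value of MT1M moved to 1.31 without Ctrl replicate 3 and to 0.66 without Ctrl replicate 1. All 7 members were higher in siPAIP1 under each scaling tried.

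Replicate 3 of siPAIP1 did not stand apart in the same direction for every member. Relative to the mean of the other siPAIP1 libraries, its CPM was 1.17 for MT1A and 1.04 for MT2A, but 0.85 for MT1X and 0.83 for MT1M. FPKM and CPM differed in that library, because its count total was 0.899 times what the FPKM denominator implied (0.967 in Ctrl replicate 2 and 0.998 to 1.00 in the others). FPKM values of siPAIP1 replicate 3 are therefore lower relative to CPM.

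Summed over the 7 members, the level was 546.3, 570.9 and 548.9 CPM in siPAIP1 and 327.8, 327.8 and 345.0 CPM in Ctrl, a ratio of 1.67. The main components kept nearly the same shares of it. MT2A made up 46.7 ± 2.43% of summed metallothionein FPKM in siPAIP1 and 47.3 ± 2.08% in Ctrl, and MT1E made up 27.2 ± 1.00% and 27.2 ± 1.34% in the same groups. The share of MT1F was 9.47 ± 0.279% in siPAIP1 and 7.33 ± 0.187% in Ctrl. The share of MT1X moved the other way, at 5.08 ± 0.434% in siPAIP1 and 6.68 ± 0.291% in Ctrl.

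These ratios need no scaling between libraries. MT1F had 1.60, 1.60 and 1.81 counts for each MT1X count in siPAIP1 and 0.965, 1.00 and 0.972 in Ctrl. MT1F to MT2A was 0.165, 0.144 and 0.143 in siPAIP1 and 0.123, 0.107 and 0.114 in Ctrl. The ranges of both ratios were apart between groups. Those of MT1X to MT2A were apart too, at 0.0789 to 0.103 in siPAIP1 and 0.107 to 0.128 in Ctrl. The share of all gene pairs with ratios apart was not computed, so nothing is read from this. MT1E to MT2A was 0.683, 0.603 and 0.575 in siPAIP1 and 0.670, 0.556 and 0.609 in Ctrl, and its ranges overlapped. These ratios were chosen after the values were seen.

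**Figure D2:**
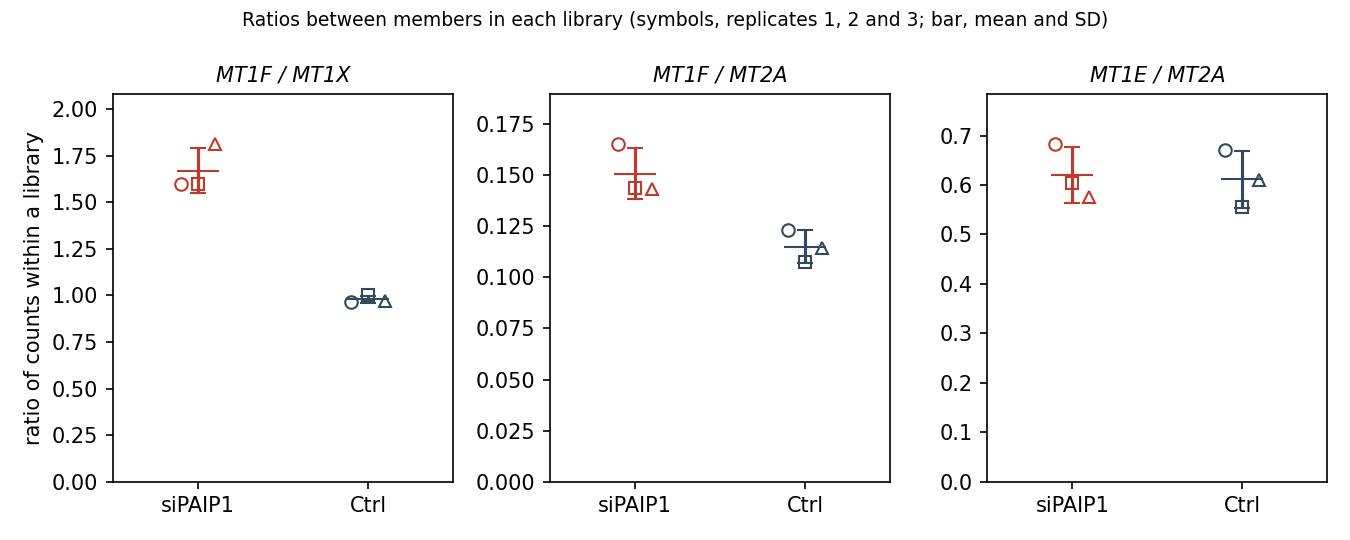
Ratios of counts between members within each library, from an axis that starts at 0, with siPAIP1 left of Ctrl, symbols for replicates 1, 2 and 3, and bars for mean and SD. MT1F to MT1X averaged 1.67 in siPAIP1 and 0.979 in Ctrl, while MT1E to MT2A overlapped between the groups.

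Stretches shared with other genes can limit the counts of some members more than others. Of all 50-base windows of its transcript, 51.0% in MT1X also occur in other genes, against 5.3% in MT1E, 5.8% in MT1A, 6.1% in MT1F, 11.1% in MT2A, 14.6% in MT1M and 19.9% in MT1G. With 100-base windows the share was 22.0% in MT1X and 0% in the other 6 members. The study's paired reads were longer than either window before trimming, so these shares can overstate the reads concerned. The windows of MT1X include those shared with RP11-343H19.2, which overlaps it on the same strand, besides those shared with other family genes. RP11-343H19.2 had 1 count over the siPAIP1 libraries and 0 over the Ctrl libraries. The study counted uniquely mapped reads, so reads within stretches shared between copies could be left out or assigned to another copy. The level of MT1X may be the most uncertain by this measure, though how much of its share lies in copies was not analysed. The part of left-out or misassigned reads in the lower ratio of MT1X was not tested.

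The other genes of the family had few counts. Of 10 further metallothionein genes and pseudogenes in the count table, 0 passed the filter, and together they had 17, 25 and 15 counts in siPAIP1 and 7, 10 and 5 in Ctrl. MT1B, the most counted, had 4, 15 and 7 counts in siPAIP1 and 6, 8 and 4 in Ctrl. MT1H had 2, 3 and 4 counts in siPAIP1 and 1, 0 and 0 in Ctrl. MT3, the form of nerve cells, had 2, 0 and 0 counts in siPAIP1 and 0 in each Ctrl library. The pseudogenes MT1DP, MT1P1, MT1XP1, MT1L, MT1CP, MT1JP and the copy MT1IP each had at most 6 counts over a group. In 9 of the 10, the sum over siPAIP1 libraries was above that over Ctrl libraries. The same share over other genes with so few counts was not computed, so nothing is read from this. Whether some of these reads came from the expressed copies was not tested.

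Of 9 protein-coding genes that flank the cluster and are reported here, 7 were tested, 0 were called higher and 1 was called lower (background 5.68% higher and 6.2% lower), and their median log2 fold change was 0.05. BBS2, a ciliary protein gene that overlaps the MT4 end of the cluster, had a log2 fold change of 0.12 (SE 0.09). NUP93, a nuclear pore gene 45922 bp beyond MT1X, had 0.05 (SE 0.07). OGFOD1, NUDT21 and NLRC5 had 0.08, 0.05 and 0.26, none of them called. HERPUD1, a gene of the endoplasmic reticulum stress response 247946 bp beyond the cluster, had 52.1, 49.9 and 43.3 CPM in siPAIP1 and 93.0, 94.0 and 90.0 CPM in Ctrl. It fell by 0.93 (SE 0.09, edgeR adjusted p = 0.0018). CETP, at 0.373 CPM in siPAIP1 and 0.716 CPM in Ctrl, had -0.92 (SE 0.41) and was not called, and GNAO1 and SLC12A3 did not pass the filter.

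**Figure D3:**
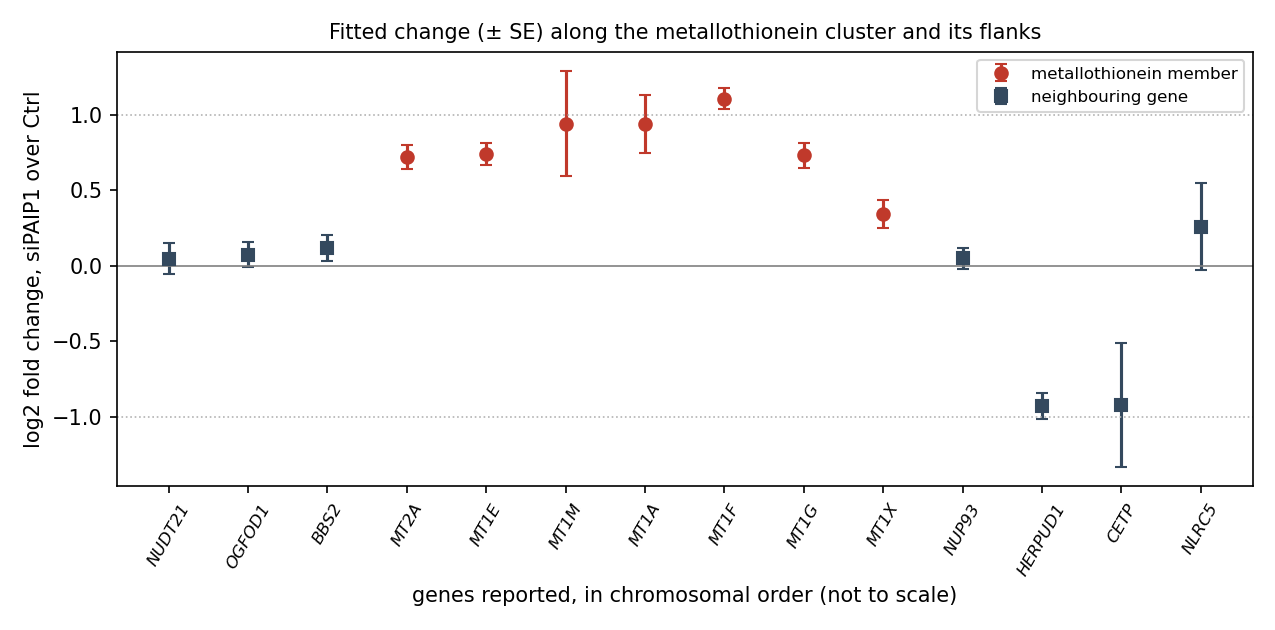
Fitted log2 fold change of siPAIP1 over Ctrl with its SE, for the members (circles) and the neighbours tested and reported (squares) in chromosomal order. The 7 members lie between 0.35 and 1.11, NUP93 and the 3 neighbours on the MT2A side lie near 0, and HERPUD1 and CETP lie at -0.93 and -0.92, CETP with the wider error.

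The members were set beside 7 lists from the same fit, which hold genes of the zinc response, of zinc and copper transport, and of the stresses and hormones that induce metallothioneins. The zinc response served as the closest comparison, with 3 genes, of which 0 were called higher and 1 lower (5.68% and 6.2% of all genes tested). MTF1 itself had 15.7, 14.4 and 20.6 CPM in siPAIP1 and 12.0, 12.4 and 11.7 CPM in Ctrl, with a log2 fold change of 0.49 (SE 0.14, adjusted p = 0.0603), which missed the threshold. It was called higher without siPAIP1 replicate 3, its highest library (0.32, adjusted p = 0.0163), and with upper-quartile factors, total counts, no filter or DESeq2 (0.46 to 0.55, adjusted p = 0.0205 to 0.0456). SLC30A1, the zinc exporter that MTF1 switches on along with metallothioneins, had 60.2, 62.5 and 52.2 CPM in siPAIP1 and 62.0, 62.5 and 62.0 CPM in Ctrl (log2 fold change -0.09, SE 0.08, adjusted p = 0.493). SLC39A10, an importer that MTF1 holds down, had 8.37, 9.35 and 8.13 CPM in siPAIP1 and 11.9, 11.4 and 12.6 CPM in Ctrl and fell by 0.47 (SE 0.10, adjusted p = 0.0218). That call was lost without siPAIP1 replicate 1 or without any 1 of the Ctrl libraries (adjusted p = 0.0595 to 0.0975).

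Among the 7 tested zinc exporters, 0 were called higher and 1 lower (5.68% and 6.2% of all genes), with a median log2 fold change of -0.10. The called gene was SLC30A3, which loads zinc into vesicles and fell by 0.64 (SE 0.10, adjusted p = 0.00971), and the call was lost without Ctrl replicate 1 or 3 (adjusted p = 0.0533 and 0.056). SLC30A9, SLC30A10 and SLC30A7 were not called (log2 fold change 0.26, -0.35 and -0.11), but SLC30A9 was called higher without siPAIP1 replicate 3 (0.36, adjusted p = 0.0011). Among the 12 tested importers, 0 were called higher and 2 lower (5.68% and 6.2% of all genes), SLC39A10 and SLC39A14, with a median of -0.19. SLC39A14, which brings zinc, iron and manganese into liver cells, had 147.1, 141.7 and 130.5 CPM in siPAIP1 and 209.3, 217.4 and 205.3 CPM in Ctrl and fell by 0.59 (SE 0.07, adjusted p = 0.00483). SLC39A11 and SLC39A5 had -0.32 and -0.30 and were not called (adjusted p = 0.0524 and 0.0736). Without siPAIP1 replicate 3 both were called, and 5 importers in all were lower (12.4% of all genes in that setting, and 11.8% higher), while without siPAIP1 replicate 1 or any 1 Ctrl library SLC39A14 alone was called.

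Of 14 copper handling genes, 0 were called higher and 1 lower, with a median of -0.04. That count is near the background of 5.68% higher and 6.2% lower over all genes, so it is no result about the list. The called gene was the copper importer SLC31A1, with 69.4, 67.0 and 63.0 CPM in siPAIP1 and 90.3, 85.5 and 86.9 CPM in Ctrl (log2 fold change -0.40, SE 0.07, adjusted p = 0.0135). The call was lost without siPAIP1 replicate 2, Ctrl replicate 1 or Ctrl replicate 3 (adjusted p = 0.0651, 0.0787 and 0.0692). The copper chaperones SCO2 and SCO1 had 0.33 and 0.18, and the transporter SLC31A2 had -0.22, none of them called. Without siPAIP1 replicate 3, SCO2 was called higher (0.35, adjusted p = 0.00456) and 2 genes were lower, near the 11.8% higher and 12.4% lower of all genes in that setting.

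Of the genes that cadmium and oxidants induce beside metallothioneins, those called were all lower. Of 14 tested, 0 were called higher and 6 lower, beside 5.68% higher and 6.2% lower of all genes tested, with a median of -0.38. HMOX1, the heme-degrading enzyme that cadmium induces, had 75.8, 69.8 and 63.0 CPM in siPAIP1 and 135.7, 128.8 and 142.2 CPM in Ctrl and fell by 0.96 (SE 0.09, adjusted p = 0.0018). TXNRD1, which reduces thioredoxin, fell by 0.73 (SE 0.10, adjusted p = 0.00535), and OSGIN1, an oxidant-induced gene, fell by 0.59 (SE 0.09, adjusted p = 0.00829). GCLC, of glutathione synthesis, fell by 0.42 (adjusted p = 0.012), and SLC7A11, a cystine transporter, and SRXN1, a sulfiredoxin, also fell (log2 fold change -0.45 and -0.39). The calls of GCLC, SLC7A11 and SRXN1 were lost without Ctrl replicate 1 or 3 (adjusted p = 0.0632 to 0.179). Those of SLC7A11 and SRXN1 were also lost without siPAIP1 replicate 2 or Ctrl replicate 2 (adjusted p = 0.0538 to 0.111), and that of SRXN1 without siPAIP1 replicate 1 (adjusted p = 0.0673). The heat shock genes of the list were not called, except HSPA1B, which was lower without siPAIP1 replicate 3 (-0.22, adjusted p = 0.0259).

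The glucocorticoid list gave no single direction. Of 11 tested genes, 2 were called higher and 3 lower (5.68% and 6.2% of all genes), with a median of -0.14. FKBP5, a co-chaperone of the glucocorticoid receptor, had 49.5, 50.9 and 51.8 CPM in siPAIP1 and 40.6, 39.4 and 34.8 CPM in Ctrl (log2 fold change 0.41, SE 0.08, adjusted p = 0.0208), and the receptor gene NR3C1, named after its value was seen, rose by 0.34 (adjusted p = 0.0456). TSC22D3, a glucocorticoid-induced leucine zipper gene, the kinase gene SGK1 and G6PC, of glucose release, fell (log2 fold change -0.77, -0.67 and -1.38, adjusted p = 0.0323, 0.0239 and 0.015). All 5 calls were lost without siPAIP1 replicate 2 and without each Ctrl library in turn, and those of FKBP5, NR3C1 and TSC22D3 also without siPAIP1 replicate 1 (adjusted p = 0.0501 to 0.174 over all of these). With all 6 libraries, the NR3C1 call was also lost with RLE or upper-quartile factors, no filter or DESeq2 (adjusted p = 0.0563 to 0.128). That of TSC22D3 was also lost with DESeq2 (adjusted p = 0.0964).

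In the interleukin-6 list, 1 of 10 tested genes was called higher and 3 lower (5.68% and 6.2% of all genes), with a median of -0.15. STAT3, which carries the interleukin-6 signal to the nucleus, had 142.2, 142.4 and 173.3 CPM in siPAIP1 and 99.4, 103.7 and 99.0 CPM in Ctrl (log2 fold change 0.60, SE 0.09, adjusted p = 0.00943). The acute-phase protein genes SERPINA3 and HP fell (log2 fold change -1.03 and -1.41, adjusted p = 0.00254 and 0.0107, SERPINA3 by the entry with the most counts among those that share its symbol), and the receptor subunit IL6ST fell by 0.36 (adjusted p = 0.0219). The STAT3 and HP calls were lost without Ctrl replicate 1 (adjusted p = 0.0621 and 0.0588) or Ctrl replicate 3 (adjusted p = 0.0645 and 0.0536), and that of IL6ST without siPAIP1 replicate 2 or any 1 Ctrl library (adjusted p = 0.0611 to 0.103). Without siPAIP1 replicate 3, 1 gene was called higher and 5 lower, while over all genes that setting called 11.8% higher and 12.4% lower.

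**Figure D4:**
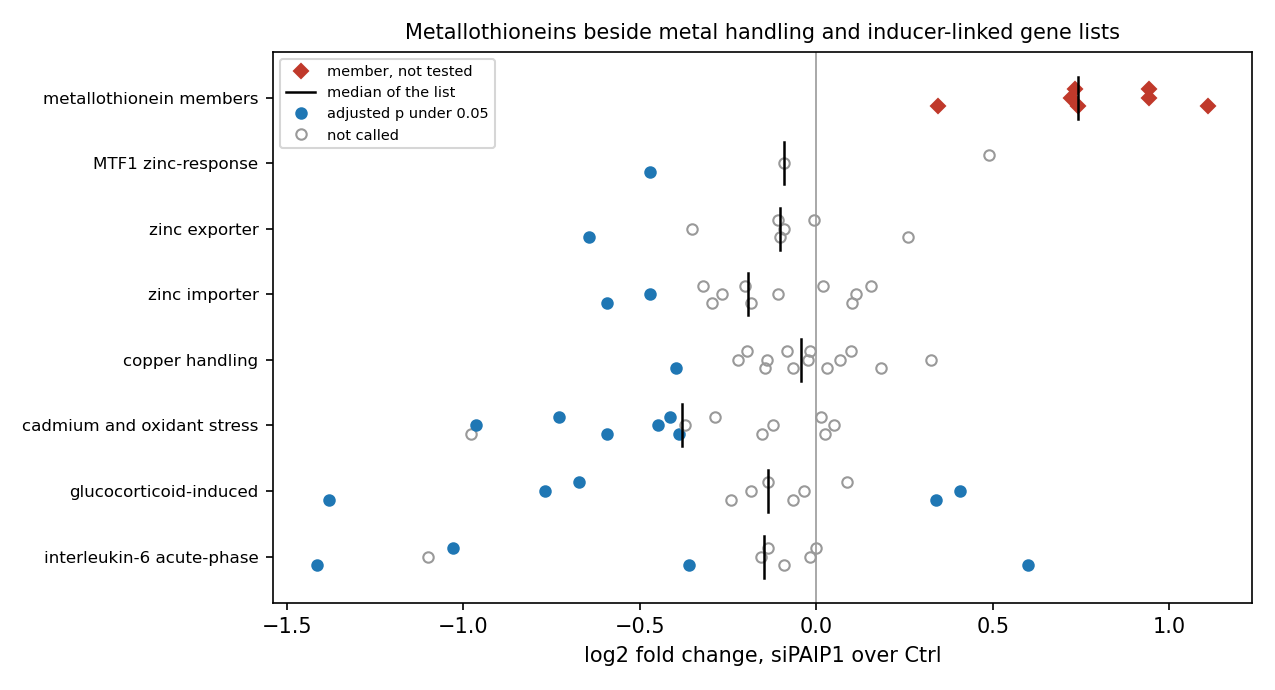
Fitted log2 fold change of siPAIP1 over Ctrl for the 7 members (diamonds, described without a test) and for each tested gene of 7 lists (filled circles, adjusted p under 0.05; open circles, not called), with the median of each as a vertical line. The members have a median of 0.74, and the list medians lie between -0.38 and -0.04.

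With TMM factors, the median of each of these 7 lists was below 0, while that of the copper list was 0.02 with total counts and no factors. The counts called describe these genes only, since no test of the lists as wholes was made.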

How the data were processed

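RNA-seq was performed on 3 siPAIP1 and 3 Ctrl HepG2 libraries. The authors trimmed reads with FASTX-Toolkit 0.0.13 and aligned them to GRCh38 with TopHat2. They deposited raw counts per gene and FPKM computed from uniquely mapped reads. For the counting tool, its strand setting and its annotation, nothing is given in the sources used here. The deposited counts were analysed with edgeR 4.0.16 in R 4.3.3 (filterByExpr, TMM, quasi-likelihood F test, Benjamini-Hochberg over 15528 genes, called at adjusted p under 0.05, and DEG when also at least 2-fold). The SE of a fitted log2 fold change was derived from the test, as its absolute value divided by the square root of its F statistic. Alternatives were RLE, upper-quartile or no factors, no filter or a CPM minimum of 1, a replicate block, each library left out, DESeq2 1.42.0, and limma 3.58.1 on log2(FPKM + 1) or log2(FPKM + 0.1). Fits were tested on simulated data, where 29.9% of 1.5-fold, 76.1% of 2-fold and 98.5% of 4-fold changes were called. A gene that was not called may therefore still have changed. The members and gene lists were chosen with earlier results of these data known. Genes named were the members, other metallothionein genes, PAIP1, the cluster neighbours (with the exception below), up to 4 genes of lowest adjusted p per list, and the 3 nearest in pattern to the summed members and to MT1F. Positions come from GENCODE release 44 and promoters from RefSeq GRCh38.p14. The expression of MT1HL1, MT1P3 and MT4 was not analysed here, and 1 neighbour of the cluster is not reported here. The study calls the 3 libraries of a group biological replicates and names no culture or batch, so p-values measure the spread between these libraries.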

Additional observations from a re-analysis of the deposited data

How the results depend on the processing

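All 7 members were higher in siPAIP1 under each alternative that tested them (MT1M was not tested with a CPM minimum of 1), and the calls of PAIP1, HMOX1, SERPINA3 and HERPUD1 were kept under all 16. With total counts and no factors, the summed metallothionein log2 difference was 0.798, beside 0.736 with TMM factors, and the member median was 0.804. The number of genes called, 1845 (882 higher, 963 lower), became 1956 (1216 higher, 740 lower) with total counts. It was 969 with limma on log2(FPKM + 1), 1032 with log2(FPKM + 0.1), 367 with log2(FPKM + 1) and no filter, and leaving out 1 library gave from 463 (Ctrl replicate 3 left out) up to 3809 (siPAIP1 replicate 3 left out). Whether the replicate numbers pair the samples is not known. Same-numbered deviations from the group means correlated at 0.26, -0.277 and -0.152, and siPAIP1 replicate 3 was nearest to Ctrl replicate 2 (0.386). Deviations within a group of 3 libraries depend on each other, and siPAIP1 replicate 3 stood apart, so these values cannot decide it. With the replicate block, 825 genes were called, with 0 in the MTF1, copper and glucocorticoid lists, 1 importer and 3 of the cadmium and oxidant list. Both limma fits with a filter gave 0 in the MTF1 and copper lists, 1 importer and 3 of the cadmium and oxidant list, and 0 (FPKM + 1) or 1 (FPKM + 0.1) of the glucocorticoid list. With no filter, limma gave 0 for the MTF1, exporter, importer, copper and glucocorticoid lists, 1 for the cadmium and oxidant list and 2 for the interleukin-6 list. The MTF1 list gave 2 calls with upper-quartile factors, total counts, no filter or DESeq2. The copper list gave 2 with total counts or a CPM minimum of 1, and the glucocorticoid list 3 with DESeq2. Leaving out 1 library gave 0 to 2 calls in the MTF1 list, 0 to 2 in the exporter list, 1 to 5 in the importer list, 0 to 3 in the copper list, 3 to 8 in the cadmium and oxidant list, 0 to 6 in the glucocorticoid list and 1 to 6 in the interleukin-6 list. The log2 difference of the other family genes, 1.34 on their summed counts, was 0.883 with log2(FPKM + 1). Low counts limit MT1A, MT1M and the other family genes, and the log2 differences of MT1A and MT1M were 0.71 and 0.43 with log2(FPKM + 1), which understates changes of low genes. The causes of the other shifts were not tested.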

Other observations

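Over 10448 tested protein-coding genes whose log2 CPM averaged 2 or more, nearness in pattern was taken as the root mean square difference of log2 CPM, centred on each gene's mean, over the 6 libraries. The nearest to the summed metallothionein level were FAM101B (0.039, chromosome 17), PODXL2 (0.057, chromosome 3) and DCBLD2 (0.058, chromosome 3). The nearest to MT1F were CPNE2 (0.08, chromosome 16), C7orf55 (0.086, chromosome 7) and PLEKHO1 (0.089, chromosome 1). Their differences between groups follow from this choice by pattern. CPNE2, a calcium-dependent membrane-binding protein gene, also lies on chromosome 16, 408387 bp beyond the metallothionein cluster. It had 24.2, 26.6 and 23.3 CPM in siPAIP1 and 12.1, 12.3 and 12.2 CPM in Ctrl, a log2 fold change of 1.02 (SE 0.08), and NUP93, SLC12A3, HERPUD1, CETP and NLRC5 lie between it and the cluster.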
